A study of Mus musculus with 8 samples.

Results

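The 9 genes described here mark microglia and the first component of complement: C1qa, C1qb, C1qc, Cx3cr1, Csf1r, P2ry12, Tmem119, Ctss and Trem2. They were chosen by symbol, and each matched 1 row of the 56576 genes in the deposited table. The libraries hold RNA bound to HA-tagged ribosomes, which was pulled down from synaptosomes of the cerebral cortex of mice at postnatal day 15. The tag was switched on by Lhx6-Cre, a driver of interneurons from the medial ganglionic eminence (MGE) and preoptic area, so that microglia were not meant to carry it. The 4 control libraries came from Lhx6-Cre;Erbb4+/+;Rpl22HA/HA mice and the 4 Erbb4 conditional mutant libraries from Lhx6-Cre;Erbb4F/F;Rpl22HA/HA mice, so that both groups carried the Cre and the tagged ribosomal protein. Only Erbb4, a receptor tyrosine kinase of these interneurons, differed by design. The study asked how loss of ErbB4 changes ribosome-bound RNA at interneuron synapses, and these genes bear on a different cell type in the same preparation. No library of input RNA, or of mice without the tag, was analysed here, so how far the pulldown enriched or depleted microglial RNA could not be computed.

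Microglia are the resident macrophages of the brain. They depend on signalling through the receptor encoded by Csf1r and sense neurons through the fractalkine receptor Cx3cr1 and the nucleotide receptor P2ry12. C1q is a secreted complex of A, B and C chains that starts the classical complement pathway, is made in the brain largely by microglia, and has been found at developing synapses, where it can mark them for removal.

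Values are normalized counts, that is, reads on a gene divided by a size factor of the library. The 8 libraries had 51010687 to 80226984 reads on genes, and each member had 229 to 10138 reads in each library, so that counting error was small beside the differences between libraries. Erbb4, the targeted gene, had 1640.1, 5377, 4306 and 3034 normalized counts in control replicates 1, 3, 4 and 5 and 1711, 1648, 1233 and 1048 in mutant replicates 2, 3, 4 and 5. The library labelled control replicate 1 therefore lay below 2 of the mutants and apart from the other controls. Erbb4 has a long transcript (12037 bases), and long genes in general lay low in that library. There, genes with transcripts over 6000 bases had a median deviation of -0.54 (log2) from their mean over the 8 libraries. The part of transcript length in the Erbb4 value of that library was not tested. Markers of the labelled cell type were present, with Sst, the somatostatin gene, at 5964 to 367992 normalized counts. Markers of cells outside the Lhx6 lineage were present as well, such as Slc17a7, the vesicular glutamate transporter of excitatory neurons, at 87106 to 122229, and Mbp, the myelin basic protein gene of oligodendrocytes, at 141073 to 535543.

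All 9 genes were detected in all 8 libraries. None of them was called changed between genotypes. A call here means a fold change of 1.5 or more with an unadjusted p no higher than 0.05, from limma on log2(normalized count + 1). Of the 31171 genes tested, 3.17% were called lower in the mutants and 3.98% higher, against 0 of the 9 members in either direction. The genotypes overlapped for each of the 9 genes, while 4.93% of all genes tested had no overlap between the 4 control and the 4 mutant values. At an adjusted p under 0.05 (limma, Benjamini-Hochberg over all genes tested), 0.0449% of genes and 0 of the 9 members passed, and 0 members had an unadjusted p under 0.05. On the recovered reads, edgeR and DESeq2 each called 1 member, Ctss, by the same thresholds. Over the same 31171 genes, edgeR called 1206 lower and 1073 higher, and DESeq2 called 1573 lower and 1261 higher. The members' log2 fold changes, mutant over control, were below 0 for 8 of 9 genes, with a median of -0.415, beside a median of 0.055 over all genes tested, of which 46.6% were below 0. In bulk RNA, fewer microglia or microglial fragments and less RNA per cell cannot be told apart.

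**Figure D1:**
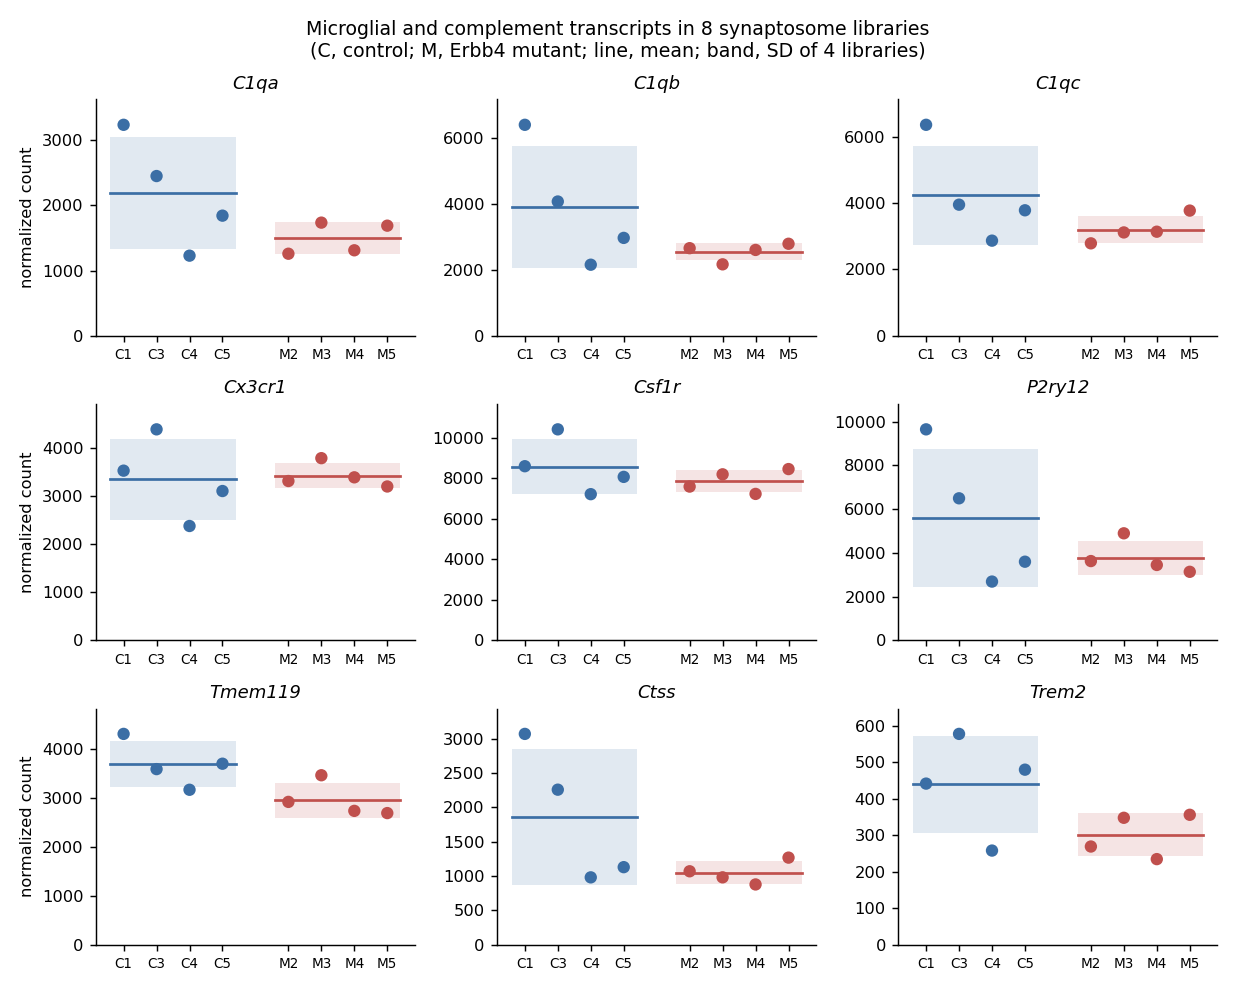
Normalized counts (vertical axes, linear, from 0) of the 9 genes in control replicates C1, C3, C4 and C5 (blue) and Erbb4 mutant replicates M2, M3, M4 and M5 (red). Lines are group means and bands are the SD of 4 libraries. The library labelled control replicate 1 is the highest of the 8 for 6 genes, and the mutants lie within a narrower band than the controls for all 9.

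The C1q chains are encoded by neighbouring genes on chromosome 4 of mm10, C1qb at 136880126 to 136886200, C1qc at 136889802 to 136892915 and C1qa at 136895916 to 136898844, with 3601 and 3000 bases between them. The 250 bases before the RefSeq starts of C1qb (chr4:136886201-136886450, minus strand, GRCm38.p6) and C1qc (chr4:136892915-136893164, minus strand, GRCm38.p6) are shown. C1qa had no listed promoter. Capitals mark GAGGAA on either strand, the core letters bound by PU.1, the myeloid transcription factor encoded by Spi1.
C1qb: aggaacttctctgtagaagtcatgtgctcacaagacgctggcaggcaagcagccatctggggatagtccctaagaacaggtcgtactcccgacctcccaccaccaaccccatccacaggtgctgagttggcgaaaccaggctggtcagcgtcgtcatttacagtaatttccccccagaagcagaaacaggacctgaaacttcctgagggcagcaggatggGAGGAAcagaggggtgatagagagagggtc
C1qc: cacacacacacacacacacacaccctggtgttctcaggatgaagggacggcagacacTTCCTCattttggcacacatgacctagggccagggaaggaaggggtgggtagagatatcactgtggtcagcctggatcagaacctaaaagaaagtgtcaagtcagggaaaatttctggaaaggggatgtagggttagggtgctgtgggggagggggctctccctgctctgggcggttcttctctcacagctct
The letters lie on the sense strand 30 bases before the start of C1qb and on the antisense strand 193 bases before that of C1qc, where they are part of the longer GAGGAAGT. Of the 9 genes, 6 were in the promoter table (all but C1qa, Csf1r and Tmem119). Of these, 4 (C1qb, C1qc, Ctss and Trem2) held GAGGAA within 250 bases, beside 23.3% of all 32851 promoters listed. Cx3cr1 and P2ry12 held none. The bases after the listed start of P2ry12 were not found near the start of any GENCODE transcript of that gene. The longer GAGGAAGT was in 1 of the 6, C1qc, and in 2.44% of all promoters. These are matches of letters only, and binding was not measured.

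C1qa, which encodes the A chain, had 3235, 2449, 1228 and 1842 normalized counts in control replicates 1, 3, 4 and 5 and 1258, 1735, 1310.3 and 1688 in mutant replicates 2, 3, 4 and 5. Of the controls, 3 lay above the highest mutant and control replicate 4 below the lowest. The log2 fold change, -0.47 (standard error 0.29), had a limma p of 0.131 and an exact permutation p of 0.2. With 4 libraries in each genotype, the exact test cannot go below 0.0286.

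C1qb, the B chain, had 6416, 4082, 2159.9 and 2976 normalized counts in the controls and 2663, 2171, 2609 and 2797 in the mutants, in the same order. Again 3 controls lay above all mutants and control replicate 4 below them. The B chain's log2 fold change was -0.50 (standard error 0.30, limma p = 0.124, exact permutation p = 0.229). C1qc, the C chain, had 6364, 3954, 2869 and 3785 normalized counts in the controls and 2787, 3117, 3138 and 3776 in the mutants. Control replicate 4 lay among the mutants and control replicate 5 just above them, and the log2 fold change was -0.35 (standard error 0.24, limma p = 0.178, exact permutation p = 0.229).

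The ratio between the chains varied less across libraries than the chains themselves. The normalized count of C1qb over that of C1qc was between 0.697 and 1.03, a 1.48-fold span, while C1qb itself spanned 2.97-fold and C1qc 2.28-fold. The ratio of C1qa to C1qc spanned 1.48-fold and that of C1qa to C1qb 1.69-fold. C1qb over Csf1r spanned 2.82-fold, from 0.265 in mutant replicate 3 to 0.747 in the library labelled control replicate 1. Csf1r has a longer transcript than C1qb (4701 against 1088 bases), and Ctss over Csf1r spanned 2.98-fold. Ratios of the chains to a short member outside the C1q genes were not computed, so a steady ratio is not shown to be particular to C1q.

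Csf1r, the receptor for the cytokines CSF1 and IL-34, was the member with the most reads and the steadiest one. It had 8587, 10406, 7208 and 8061 normalized counts in control replicates 1, 3, 4 and 5 and 7583, 8188, 7221 and 8446 in mutant replicates 2, 3, 4 and 5. The highest library was 1.44-fold above the lowest, and the genotypes were interleaved. The log2 fold change was -0.11 (standard error 0.18, exact permutation p = 0.486), and its 95% confidence interval from limma ran from -0.51 to 0.28. Scaled to the total of reads on genes, where the median of all genes is 0.236, Csf1r was at 0.07.

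Cx3cr1, the receptor for neuronal fractalkine, was the only member with a fold change above 0 on the deposited scale. It had 3529.6, 4389, 2378 and 3106 normalized counts in the controls and 3314, 3789.6, 3391 and 3200.2 in the mutants. All 4 mutants lay inside the range of the controls, and the log2 fold change was 0.06 (standard error 0.21, exact permutation p = 0.771, 95% confidence interval -0.40 to 0.53).

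P2ry12, the ADP receptor that microglia use to extend processes towards injury, had the widest span of the 9, 3.59-fold. It had 9643, 6490.3, 2683 and 3592 normalized counts in the controls and 3621, 4890.0, 3443 and 3129.7 in the mutants. Of the controls, 2 lay above all mutants, 1 lay within them and 1 below, and the log2 fold change was -0.42 (standard error 0.36, exact permutation p = 0.4).

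Trem2, a lipid-sensing receptor of microglia, had the lowest counts, with 442, 578, 258 and 479.9 in the controls and 269, 348, 235 and 356 in the mutants. Between genotypes it differed by -0.50 on the log2 scale (standard error 0.32, limma p = 0.15, exact permutation p = 0.171). Here the library labelled control replicate 1 was not the highest, and 3 of the 4 controls lay above all mutants.

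Tmem119, a membrane protein used to tell microglia from other macrophages, had 4303, 3584, 3163 and 3694 normalized counts in the controls and 2915, 3459, 2732 and 2687 in the mutants. Mutant replicate 3 lay above control replicate 4, and the remaining mutants below all controls. Its exact permutation p, 0.0571, was the lowest of the 9, and the log2 fold change was -0.32 (standard error 0.18). The mutant level was 0.801 times that of controls, short of the 1.5-fold threshold.

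Ctss, which encodes the lysosomal protease cathepsin S, had the largest difference. It had 3070.2, 2258, 982 and 1130.4 normalized counts in the controls and 1070.4, 982, 879 and 1269 in the mutants. The libraries labelled control replicates 1 and 3 lay above all others, and control replicates 4 and 5 lay among the mutants. Its log2 fold change of -0.68 (standard error 0.35) had a limma p of 0.0784, an adjusted p of 0.581 and an exact permutation p of 0.229. The calls of Ctss as lower were with edgeR (-0.79, adjusted p = 0.572) and with DESeq2 (-0.81, adjusted p = 0.386).

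Per kilobase of the longest protein-coding transcript, the mean normalized count over the 8 libraries ran from 341 for Trem2 to 3095 for C1qc. In between, from low to high, came Cx3cr1 (754), Ctss (1074), Tmem119 (1480), Csf1r (1747), C1qa (1772), P2ry12 (1999) and C1qb (2973). The library ranges of neighbours in this order overlapped. The order is approximate, since reads were counted on constitutive regions whose lengths were not used here.

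The controls were more variable than the mutants for all 9 genes. The coefficient of variation was 12.8% to 56.1% in controls and 7.11% to 20.5% in mutants, and nearly equal for Tmem119 (12.8% and 12.0%). This was not particular to the members. The mean deviation of the other microglia genes, the oligodendrocyte genes and the astrocyte genes also ranged more widely over the controls than over the mutants. Border macrophage and oligodendrocyte precursor genes ranged more widely over the mutants. The share over all genes was not computed. The library labelled control replicate 1 was the highest of the 8 for 6 genes and control replicate 3 for the remaining 3, while control replicate 4 was the lowest for 5. Together the members took 0.0634%, 0.0464%, 0.0344% and 0.0454% of the reads on genes in control replicates 1, 3, 4 and 5 and 0.0399%, 0.0441%, 0.0405% and 0.0467% in mutant replicates 2, 3, 4 and 5. The lowest and the highest share were thus both in controls.

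Single control libraries therefore moved the result in opposite directions. Without the library labelled control replicate 1, the members' median log2 fold change was -0.22, and C1qa was at -0.26, P2ry12 at -0.10 and Ctss at -0.38, with 0 of 9 called. Without control replicate 4 the median was -0.71 and 4 of 9 were called lower, namely C1qa (-0.72), C1qb (-0.75), Ctss (-0.93) and Trem2 (-0.74), each with an adjusted p of 0.441 from limma. In that setting 4.93% of all genes tested were called lower, and Cx3cr1 turned to -0.09. Without control replicate 5, Ctss was the 1 member called lower (-0.86, adjusted p = 0.368 from limma), beside 6.35% of all genes tested.

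The 5 genes with transcripts of 1040 to 1355 bases (C1qa, C1qb, Trem2, C1qc and Ctss) spanned 2.28-fold to 3.49-fold across the libraries. The 2 longest, Cx3cr1 with 4493 bases and Csf1r with 4701, spanned 1.85-fold and 1.44-fold. Tmem119 (2242 bases) spanned 1.60-fold and P2ry12 (2344 bases) 3.59-fold, so that genes of middle length were found near both ends.

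Across all genes, values varied with transcript length, and differently in each library. In the library labelled control replicate 1, the median deviation from a gene's mean over the 8 libraries was 1.05 (log2) for 476 genes with transcripts of up to 1000 bases and -0.54 for 1950 genes with transcripts over 6000 bases. Control replicate 3 sloped the same way, from 0.88 to -0.21, and mutant replicate 5 the opposite way, from -0.44 to 0.25. The genotype difference sloped with it. The median log2 fold change was -0.46 over the 958 genes with transcripts of 1000 to 1500 bases, the bin of C1qa, C1qb, C1qc, Ctss and Trem2, and -0.24 over the 2615 genes of 1500 to 2500 bases, the bin of P2ry12 and Tmem119. It was 0.20 over the 2895 genes of 4000 to 6000 bases, the bin of Cx3cr1 and Csf1r.

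**Figure D2:**
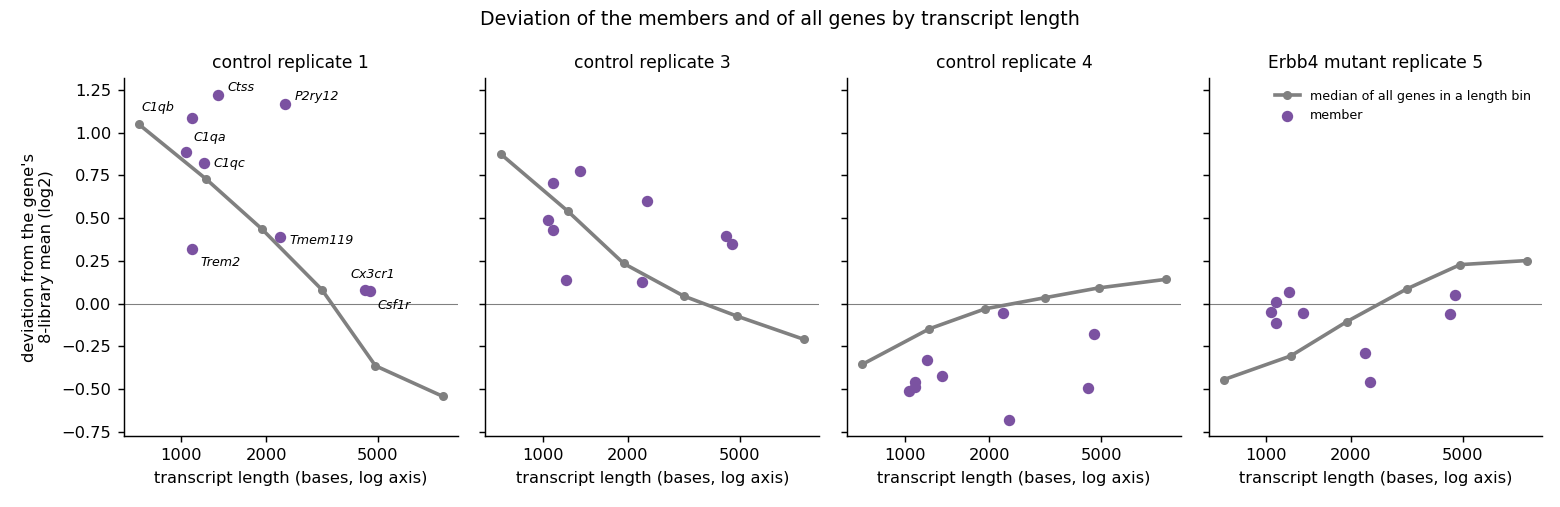
Deviation of each member (purple) from its own mean over the 8 libraries, in log2 units, against the length of its longest protein-coding transcript (log axis), in 4 of the 8 libraries. Grey points joined by a line are medians of all genes whose mean reached 100 normalized counts, in 6 length bins drawn at each bin's middle. In the library labelled control replicate 1 the grey medians fall from 1.05 to -0.54 and the short members lie high, while in mutant replicate 5 the medians climb from -0.44 to 0.25.

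Set beside genes of their own length, C1qa at -0.47 and C1qb at -0.50 lay near the median of their bin, -0.46, and C1qc at -0.35 lay above it. Ctss, at -0.68, lay below the same median. Csf1r, at -0.11, lay further from its bin median of 0.20 than C1qa or C1qb from theirs.

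When the trend with length was subtracted within each library, an alternative chosen after seeing the data, the members' median log2 fold change was -0.09 and 0 of 9 were called. By that measure C1qa was at 0.02 (standard error 0.20), C1qb at -0.02 (0.19), C1qc at 0.09 (0.19) and Trem2 at -0.03 (0.31). Cx3cr1 changed sign to -0.09 (0.23). The members furthest below 0 were then Csf1r at -0.30 (standard error 0.19, adjusted p = 0.524 from limma), Ctss at -0.29 (0.23, adjusted p = 0.592) and P2ry12 at -0.25 (0.30, adjusted p = 0.726), and 7 of 9 were below 0. Of the 15183 genes tested this way, 3.28% were called lower.

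**Figure D3:**
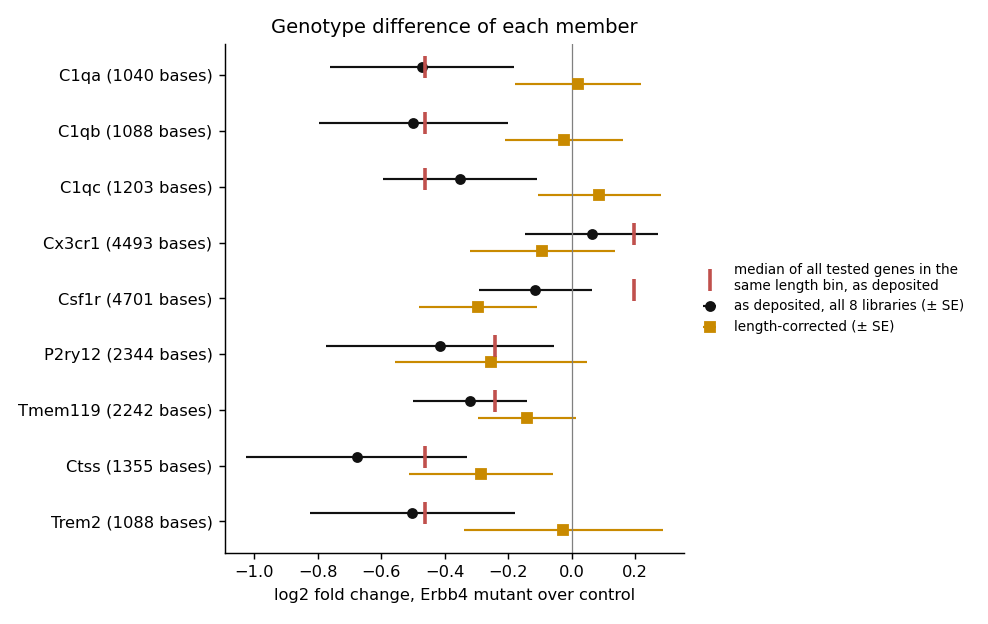
Log2 fold change, Erbb4 mutant over control, of each member with its standard error, on the deposited scale (black circles) and after the trend with transcript length was subtracted in each library (orange squares). Red ticks give the median of all genes in the same length bin on the deposited scale. C1qa, C1qb and Trem2 lie near the tick at -0.46 and near 0 once corrected, and the error bars of all but 2 corrected values, those of Csf1r and Ctss, reach 0.

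Correction for length reduced but did not remove the differences between libraries. The members' mean deviation in control replicates 1, 3, 4 and 5 was 0.67, 0.45, -0.40 and 0.02 (log2) as deposited and 0.25, 0.10, -0.29 and 0.16 after correction. In mutant replicates 2, 3, 4 and 5 it was -0.25, -0.08, -0.30 and -0.10 as deposited and -0.15, 0.04, -0.17 and 0.06 after correction.

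The 21 further genes of microglial identity gave a similar picture. Their median log2 fold change was -0.38, 18 of 21 were below 0, 3 were called lower and 1 higher. Over all genes tested, 3.17% were called lower and 3.98% higher, and 4.93% had no overlap between genotypes. Siglech, a sialic acid-binding lectin of microglia, had 2894, 1471, 1082 and 1086 normalized counts in the controls and 842, 535, 939 and 971 in the mutants, with no overlap (log2 fold change -0.90, exact permutation p = 0.0286). Gpr34, a lysophosphatidylserine receptor, was lower by the same call (-0.82, exact permutation p = 0.0571), with control replicate 4 among the mutants. Selplg, the ligand of P-selectin, was lower without overlap (-0.71, exact permutation p = 0.0286). Ptprc, the leukocyte antigen CD45, was called higher at low counts, 78.1 to 318 in controls and 268 to 501 in mutants (1.05, exact permutation p = 0.0571). None of these passed an adjusted p of 0.05 (0.58 for each of the 4 called, limma). After correction for length, Siglech (-0.73) and Gpr34 (-0.62) were called lower, beside 3.28% of all genes tested that way. The list's median was then -0.17. Without the library labelled control replicate 1, 1 of the 21 was called lower and 1 higher, beside 2.06% of all genes tested called lower. Without control replicate 4, 8 of the 21 were called lower and 0 higher, beside 4.93% of all genes tested called lower.

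Of 11 ligands and partners of the members, 0 were called by limma in either direction and 0 had an unadjusted p under 0.05. By contrast, edgeR called 2 and DESeq2 4. Over all 31171 genes, edgeR called 1206 lower and 1073 higher, and DESeq2 called 1573 lower and 1261 higher. Cx3cl1, the neuronal ligand of Cx3cr1, was far more abundant than its receptor, with 120672 to 349972 normalized counts, and its log2 fold change was -0.72 (exact permutation p = 0.0857). Of the ligands of Csf1r, Il34 was at -0.30 (exact permutation p = 0.371) and Csf1 at 0.39 (exact permutation p = 0.2). Tyrobp, the adaptor through which TREM2 signals, had a transcript of 597 bases and spanned 6.41-fold, from 188 normalized counts in control replicate 4 to 1207 in the library labelled control replicate 1. Between genotypes it differed by -0.30 on the log2 scale (exact permutation p = 0.657).

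Downstream of C1q, the remaining complement components were sparse. Of 14 tested, 1 was called lower and 1 higher by limma, beside 3.17% and 3.98% of all genes tested. Masp1, a protease of the lectin pathway, was lower (-0.95, exact permutation p = 0.114), with 629.5 to 2138 normalized counts in controls and 414 to 1026 in mutants. C3, the central component, was listed at 0 in all 4 controls and at 157, 0, 49.2 and 17.9 in mutant replicates 2, 3, 4 and 5, so that its call as higher (exact permutation p = 0.143) rests on 3 libraries with few counts. Among 6 complement receptors, C5ar1, the C5a receptor, was called higher at low counts, 4.95 to 79.1 in controls and 75.7 to 187 in mutants. Itgam, a subunit of the complement receptor through which microglia engulf synapses, was at 0.01 (exact permutation p = 1.0). Itgb2, the other subunit of that receptor, was at 0.67 (exact permutation p = 0.0571), not called on the deposited scale and called higher after correction for length. Of 12 complement regulators and related synaptic proteins, 1 was called, Sez6l2, a neuronal membrane protein with complement-control domains, which was lower (-0.76, exact permutation p = 0.114). The 7 tested genes of the neuronal C1q-domain family were below 0, with 0 calls by limma, edgeR or DESeq2. C1ql1, a synaptic organizer, was at -0.53 (exact permutation p = 0.0857) and was the 1 gene of the 7 with an unadjusted limma p under 0.05.

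Of 9 tested genes of disease-associated microglia, 0 were called by limma and 1 each by edgeR and DESeq2. Over all 31171 genes, edgeR called 1206 lower and 1073 higher, and DESeq2 called 1573 lower and 1261 higher. Of the 9 disease-associated genes, 7 were below 0, and their median log2 fold change was -0.59. Axl, a receptor for apoptotic cells, was the 1 gene of that list with an unadjusted limma p under 0.05, at 0.54 without overlap but under the fold threshold. Of 8 genes of border macrophages, the scavenger receptor gene Cd163 was called higher (1.24, exact permutation p = 0.0286), at 87.2 to 166 normalized counts in controls and 186 to 475 in mutants, and their median was 0.42. Of 8 blood cell genes tested, 1 was called higher by limma, beside 3.98% of all genes tested.

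Of the other cell types of the cortex, some moved across the libraries with the members, some against them, and some did neither. The mean deviation of the 10 excitatory neuron genes stayed between -0.111 and 0.169 (log2). That of the 7 oligodendrocyte precursor genes stayed between -0.153 and 0.115. The 10 oligodendrocyte genes deviated by 0.88, 0.42, -0.38 and 0.17 (mean, log2) in control replicates 1, 3, 4 and 5, beside 0.67, 0.45, -0.40 and 0.02 for the members, and all 10 had fold changes below 0 (median log2 fold change -0.62, 3 called lower). Without the library labelled control replicate 1, their median was -0.34 with 0 called. With all 8 libraries, edgeR called 5 of the 10 oligodendrocyte genes and DESeq2 6. Over all 31171 genes, edgeR called 1206 lower and 1073 higher, and DESeq2 called 1573 lower and 1261 higher. Of all genes tested, limma called 3.17% lower and 3.98% higher with all 8 libraries, and 2.06% lower without the library labelled control replicate 1. The 10 astrocyte genes deviated by 0.40 in the library labelled control replicate 1 and -0.26 in control replicate 4 (median log2 fold change -0.11, 0 called by limma, 0 by edgeR and 1 by DESeq2, 0 at an unadjusted p under 0.05). The 10 endothelial and mural genes went the opposite way, at -0.74 in the library labelled control replicate 1 and 0.18 to 0.34 in the mutants (median log2 fold change 0.55, 4 called higher, and 1 without that library). The 11 markers of MGE-derived interneurons ran in another order, from 1.32 in control replicate 3 to -1.36 in mutant replicate 5, with 4 called lower, and 1 without the library labelled control replicate 1. The part of the share of each cell type in the members' values was not tested.

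**Figure D4:**
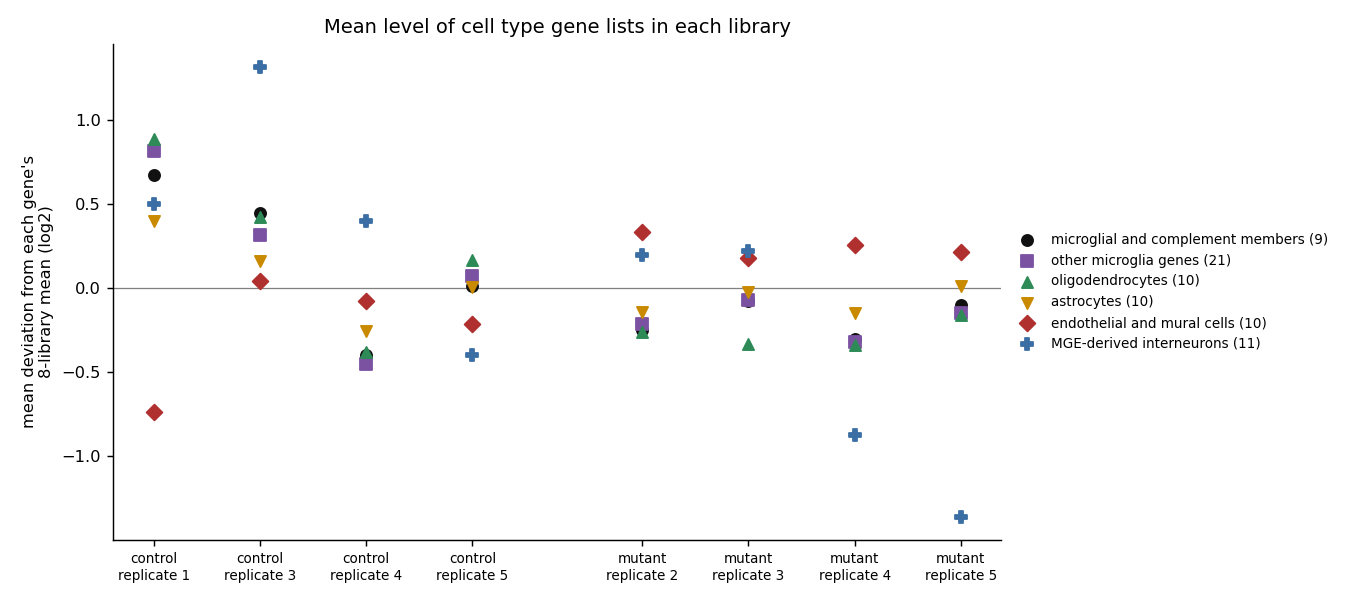
Mean deviation of the genes of 6 lists from each gene's own mean over the 8 libraries (log2, vertical axis), by library. The members (black circles), the other microglia genes (purple squares) and the oligodendrocyte genes (green triangles) lie at 0.67, 0.82 and 0.88 in the library labelled control replicate 1 and at -0.08, -0.07 and -0.33 in mutant replicate 3. In the former library the endothelial and mural genes lie at -0.74.

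Over 19128 further genes whose mean reached 100 normalized counts, the pattern across the 8 libraries most like the mean of C1qa, C1qb and C1qc was that of Dazap2, with a root mean square difference of 0.091 (log2), followed by Id2 (0.092), Dbndd2 (0.093), Ube2e3 (0.096) and Chmp2a (0.098). The C1q pattern itself had a root mean square deviation of 0.424. The pattern most like the mean of all 9 members was that of Plpp3 (0.054), followed by 0610040J01Rik (0.062), a gene without a symbol (0.073), Snf8 (0.079) and Mlc1 (0.082). The nearest 100 genes to the C1q pattern held 0 of the 21 further microglia genes. The points of these comparisons share library and depth.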

How the data were processed

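The deposited values are normalized counts, a signal for which the authors' reads were aligned with STAR 2.4.0 to mm10, counted on constitutive regions of Mouse Fast DB genes, and divided by 1 DESeq2 size factor per library. Libraries were made from 1 ng of RNA and sequenced in paired ends. The study mentions sequencing batches, which no label gives. Dividing by the value of 1 read gave whole reads (tolerance 0.01) for 100% of values.

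Genes whose mean reached 10 in either genotype were tested by limma 3.58.1 (trend, log2 with a pseudocount of 1) in R 4.3.3, without covariates. That scale understates changes of low genes. edgeR 4.0.16 and DESeq2 1.42.0 on the recovered reads were alternatives. Lengths were those of the longest protein-coding GENCODE vM21 transcript, found for 15183 of 31171 genes tested, and the length trend was a lowess with span 0.3. Replicates are the study's biological replicates. Named genes are the members, Erbb4, the members' ligands and adaptor, called or abundant genes of each list, and the 5 nearest patterns. Members and lists were chosen with earlier results of these data known. The procedure was tested on simulated data. Promoter sequences are RefSeq's.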

Additional observations from a re-analysis of the deposited data

How the results depend on the processing

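Leaving out 1 library at a time gave 0 to 4 members called lower, a members' median of -0.71 to -0.221, 1 to 8 other microglia genes lower and 0 to 1 higher, and 515 to 1977 of all genes lower and 619 to 1792 higher. Cx3cr1 ran from -0.09 to 0.204 over these fits. edgeR and DESeq2 each called 1 member lower, Ctss. DESeq2 called 5 other microglia genes lower and 1573 of all genes, and edgeR 0 other microglia genes higher. Without limma's trend 1 other microglia gene was lower and 0 higher. Library weights gave 1 other microglia gene lower, with 1633 of all genes lower and 1997 higher, and a members' median of -0.115. With calls made on an adjusted p below 0.05, 0 other microglia genes were lower or higher, beside 14 of all genes lower and 0 higher. With an unadjusted p no higher than 0.01, 1 other microglia gene was lower and 0 higher, beside 142 of all genes lower and 212 higher.

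Scaling to the total of reads on genes, added after seeing the data, moved the median of all genes to 0.236 and that of the members to -0.231, with Csf1r at 0.07, 1 other microglia gene lower, and 415 of all genes lower and 2256 higher. Correction for length, also added later, turned C1qa to 0.019, C1qc to 0.087 and Cx3cr1 to -0.092, with 0 other microglia genes higher, and 498 of all genes lower and 556 higher among fewer genes tested. The cause of these changes was not tested. No label says that replicate numbers pair the libraries. Same-numbered libraries 3, 4 and 5 had correlations of 0.1, 0.098 and 0.082 between their deviations from the group means, beside a mean of -0.021 for other pairs, so that not every pair was over 0.1. A fit with the replicate block gave 0 members called, a members' median of -0.177, 1 other microglia gene lower and 1719 of all genes lower. Control replicate 1 and mutant replicate 2 have no partner of the same number. The genotype difference in that fit therefore came from replicates 3, 4 and 5 alone. Members had 229 to 10138 reads each.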
